A study of Mus musculus with 7 samples.

Results

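Canonical Polycomb repressive complex 1 (PRC1) and the germline Polycomb gene *Scml2* were followed here in the bulk RNA-seq of synchronized mouse testes. The members are 10 genes chosen by name: *Scml2* and *Scmh1*, *Bmi1* and *Pcgf2*, *Phc1*, *Phc2* and *Phc3*, and *Cbx2*, *Cbx7* and *Cbx8*. They are 10 of 21928 genes, each the sum of its transcripts. All 10 were among the 13630 genes tested, which had at least 1 TPM (transcript abundance scaled by length and library) in at least 3 of 7 libraries. There were 4 libraries of wild-type and 3 of *Meioc*-null (Meioc KO) C57BL/6N male pups, each made from 1.5 testes of 1 pup. Pups of both genotypes had received daily WIN 18,446, a blocker of retinoic acid synthesis, at 0.1 mg per g from postnatal day 2 to 8, and retinoic acid at 0.0125 mg per g on day 9. Testes were taken 6.75 days after retinoic acid, when preleptotene spermatocytes, the germ cells about to enter meiosis, are enriched. Whole testis was used, so somatic cells are in every library, and every cell of a *Meioc*-null animal carries the null allele.

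PRC1 places ubiquitin on histone H2A and compacts chromatin. All its forms share the catalytic pair RING1 and RNF2. In the canonical form these are joined by BMI1 or PCGF2, by a polyhomeotic protein (PHC1, PHC2 or PHC3) that lets complexes cluster, by a CBX protein that reads the H3K27 methylation written by PRC2, and loosely by a sex-comb-on-midleg protein such as SCMH1. SCML2 is the germline relative of SCMH1, known for silencing somatic genes in male germ cells and for acting on the sex chromosomes in meiosis.

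The sequence of *Scml2* bears on how its reads can be assigned. The gene lies on chromosome X from 161117193 to 161258213 on the plus strand of GRCm38. Its coding region holds 12 exons of 84 bases each. Of these, 8 consecutive exons are near copies: 6 have the same sequence and the other 2 differ from it at 2 bases, which are in capitals below. Each copy is 28 codons long. The closest of the other 84-base exons matches at 59 bases. One exon of each kind is printed, with a 78-base coding exon that is annotated in a single transcript, *Scml2-205*. All 3 were read from GENCODE vM21 transcripts.

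Repeated exon, first form, chrX:161221666-161221749: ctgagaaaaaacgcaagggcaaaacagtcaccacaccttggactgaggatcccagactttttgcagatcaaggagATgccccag

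Repeated exon, second form, chrX:161224461-161224544: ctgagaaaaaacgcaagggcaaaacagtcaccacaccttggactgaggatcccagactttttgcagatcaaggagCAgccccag

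Second exon of *Scml2-205*, chrX:161121024-161121101: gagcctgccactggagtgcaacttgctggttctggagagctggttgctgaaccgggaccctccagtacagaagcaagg

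*Scml2-201*, *Scml2-203* and *Scml2-206* carry all 8 copies, *Scml2-202* carries 6, *Scml2-204* carries 3 and *Scml2-205* carries 2. The deposited transcripts of the 10 genes numbered 38, and all 38 had the same length in GENCODE vM21.

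Promoter windows were available for 9 of the 10 genes, all but *Cbx2*, as 250 bases before a RefSeq start on GRCm38.p6. The sequence CACGTG, an E-box to which dimers of MAX such as MGA-MAX are known to bind, was present in the windows of 5 of these 9 genes. It reads the same on both strands. It stood in 6.02% of all 32851 windows and in 9.89% of the 10628 tested genes that had a window. The 5 matches are shown with the motif in capitals and 12 bases on each side, in the direction of the gene.

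*Bmi1*, chr2:18676791-18676820, plus strand, motif beginning 215 bases before the start: gaatgaggggagCACGTGacccggcggggg

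*Pcgf2*, chr11:97699768-97699797, minus strand, 137 bases before: aaggaatgaggtCACGTGggtgagtagtgg

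*Phc2*, chr4:128654633-128654662, plus strand, 57 bases before: ggctggagtgggCACGTGacactctccggt

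*Phc3*, chr3:30969480-30969509, minus strand, 82 bases before: agtcgctggcctCACGTGacctctgcgccc

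*Cbx8*, chr11:119040994-119041023, minus strand, 98 bases before: cgtcgttagcaaCACGTGgggcgggaggaa

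The *Phc2* match lies before the start of *Phc2-201* at 128654702, a transcript with 1.74% of *Phc2* TPM over all libraries. *Phc2-202*, which held 94.7% to 97.5% in each library, starts at 128727585. The *Bmi1* match lies before *Bmi1-201* at 18677018, and *Bmi1-202*, with the larger share, starts at 18680372. *Scml2*, *Scmh1*, *Phc1* and *Cbx7* had no CACGTG in their windows. Both the E2F core TTCCCGC and the sequence CNCCTCAG, searched on both strands, were found in the *Scmh1* window alone, against 8.03% and 8.82% of tested genes with a window. The 3 motifs were chosen after expression values had been seen. Over all tested genes with CACGTG in the window, 101 were called higher and 39 lower in wild type; the median log2 value was −0.0046, beside −0.0038 for those without it. The share called was 13.3% with the motif and 10.8% without it. For TTCCCGC the median was 0.052 with and −0.0083 without the motif, and 15.4% and 10.6% were called. For CNCCTCAG the median was 0.058 and −0.0096, and 14.7% and 10.7% were called. These shares were not tested.

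Each library held 12537852 to 20552702 estimated counts. The targeted gene, *Meioc*, was lower in all 3 *Meioc*-null libraries, at 299 to 412 CPM (count share of the library, scaled by TMM) against 466 to 718 in wild type (log2 0.76 ± 0.16 SE, adjusted p = 0.021, edgeR). The tables hold 1 *Meioc* transcript, which does not show which part of the gene the null allele lacks. Each fold change sets wild type over *Meioc*-null testes, and a gene is called at an adjusted p under 0.05 over all 13630 genes. At this threshold 1513 genes (11.1%) were called, 1059 (7.77%) higher and 454 (3.33%) lower in wild type. With library size as the only scaling the split was 814 higher and 899 lower, and on log2(TPM + 1) it was 440 and 2082. On the TPM scale the median gene moved by −0.23, and on log2(TPM + 0.1) by −0.25, so values relative to the median gene are given beside TPM fold changes.

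In level per length, the 10 genes fell into 2 ranges. *Scml2* was the highest, at 325 ± 8.39 TPM in wild type (SD, n = 4), above the level of 97.5% of the genes tested. *Bmi1* followed at 138 ± 18.4 TPM. All the others lay between 4.46 TPM (*Cbx7*) and 20.2 TPM (*Phc1*) in wild type. *Scml2* and *Bmi1* stood clear of each other and of the rest in both genotypes. Among the lower 8, wild-type neighbours in the order *Phc1*, *Phc2*, *Phc3*, *Scmh1*, *Cbx2*, *Pcgf2*, *Cbx8* and *Cbx7* overlapped in range at every step. The catalytic genes showed the same gap in TPM, with *Rnf2* at 176 to 237 and *Ring1* at 8.12 to 9.87 in wild type. *Rnf2* stood above *Ring1*, and *Bmi1* above *Pcgf2*, in every library.

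**Figure D1:**
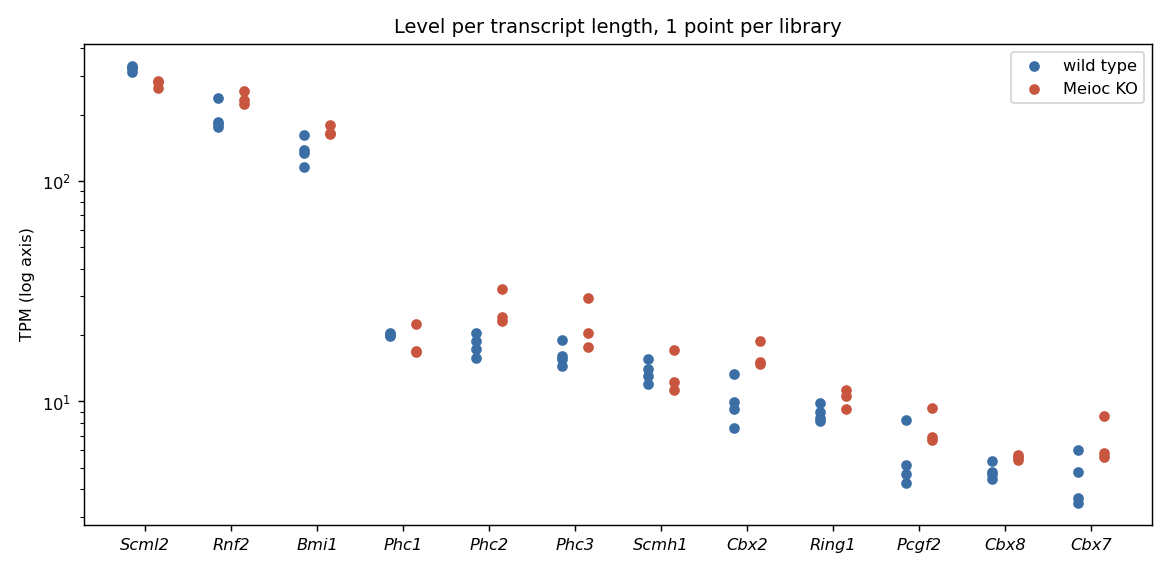
TPM of the 10 genes and of *Rnf2* and *Ring1* on a log axis, 1 point per library, wild type in blue and Meioc KO in red, ordered by the wild-type mean. *Scml2*, *Rnf2* and *Bmi1* lie above 116 TPM in all libraries, and every other gene lies at or below 32.3 TPM.

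Of the 10 genes, 1 was called higher in wild type, *Scml2*, and 0 were called lower by edgeR, so 1 in 10 stands beside the 11.1% of all genes. At an unadjusted p under 0.05 there were 5, with no share over all genes computed for this threshold. DESeq2 called 4 (*Scml2*, *Phc1*, *Phc2* and *Cbx2*), beside 2331 of all 13630 genes tested. For 5 of the 10 the CPM ranges of the genotypes were apart, beside 26.2% of all genes tested. These were *Scml2* and *Phc1*, higher in wild type, and *Phc2*, *Cbx2* and *Cbx7*, lower in wild type. The median log2 fold change of the 10 was −0.13, with 4 positive and 6 negative values, and that of all genes was −0.0065.

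**Figure D2:**
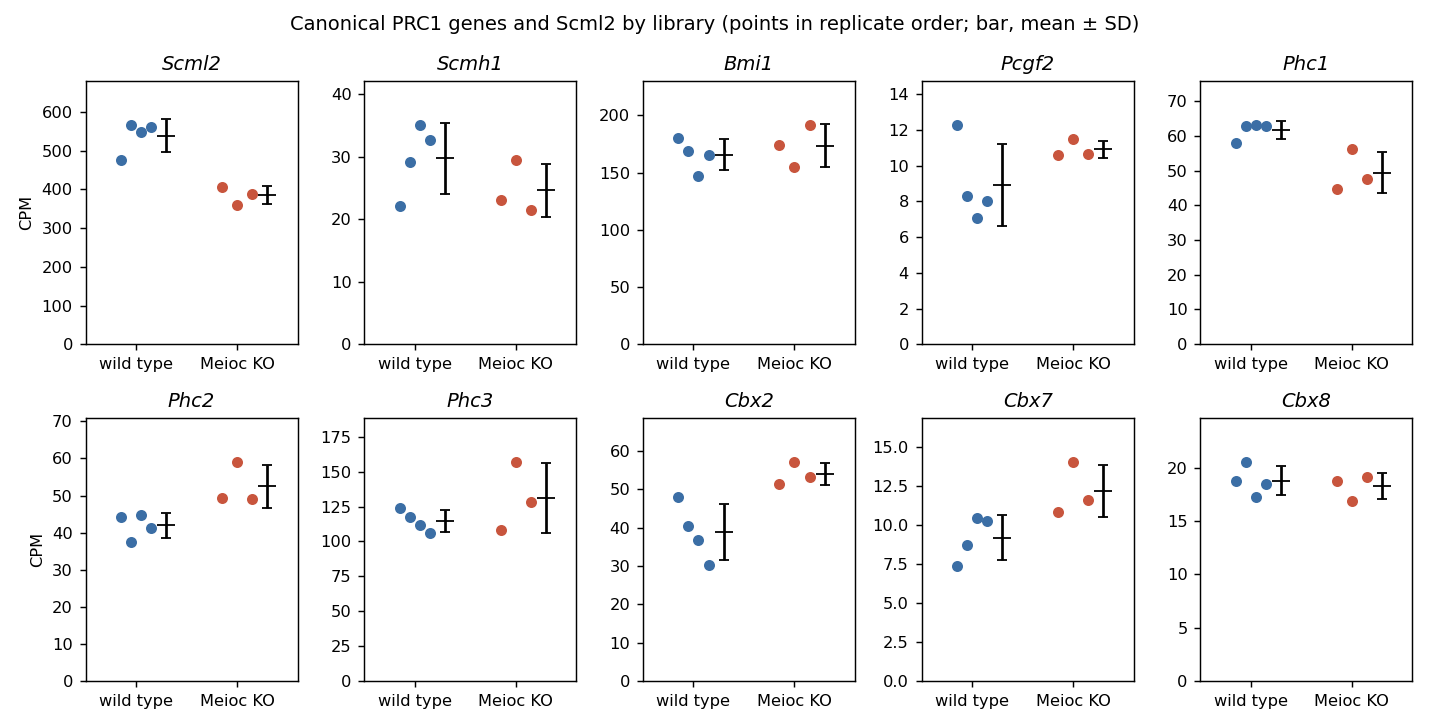
CPM of each gene in the 4 wild-type (blue) and 3 Meioc KO (red) libraries, each panel on its own axis from 0, with points in replicate order and a bar for the mean ± SD. The groups are apart for *Scml2*, *Phc1*, *Phc2*, *Cbx2* and *Cbx7*, and they overlap for the other 5.

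*Scml2*, the germline silencer, measured 475, 567, 549 and 562 CPM in the wild-type libraries and 407, 360 and 387 CPM in the *Meioc*-null libraries. Every wild-type library was above every *Meioc*-null library, and the lowest wild-type value was that of replicate 1. The mean was 538 ± 42.6 CPM (SD, n = 4) against 385 ± 23.6 CPM (n = 3), 1.40-fold higher in wild type (log2 0.48 ± 0.085 SE, adjusted p = 0.014, edgeR). The groups were also apart in TPM, at 313 to 334 against 264 to 285. Between 4983 and 11172 reads per library lie behind these values. The direction held in all 16 other fits. Among the other scalings, filters and left-out libraries, the call was lost without *Meioc*-null replicate 3 (0.49, adjusted p = 0.060, edgeR) and on both TPM scales (log2 0.23 before centring, adjusted p = 0.051, limma). It was close to the threshold without wild-type replicates 2, 3 or 4 (adjusted p = 0.0498, 0.0497 and 0.042) or *Meioc*-null replicate 2 (0.044, edgeR). Without wild-type replicate 1 or *Meioc*-null replicate 1 the adjusted p was 0.0026 and 0.016 (edgeR). Relative to the median gene the log2(TPM + 1) value was 0.46, which was not tested.

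The summed level of germ cell markers differed in the same direction as *Scml2*, but single markers did not all do so. The summed CPM of 12 germ cell markers was 2360 to 2669 in wild type and 1685 to 1818 in *Meioc*-null testes, with none of them at 0 in any library. That of 10 spermatocyte markers was 2424 to 3612 and 1105 to 1366. Wild-type replicate 1, which had the lowest *Scml2* level of its group, also had the lowest spermatocyte sum of its group. The median log2 fold change was 0.24 over the 11 germ cell markers tested and 1.40 over the 10 spermatocyte markers, beside 0.48 for *Scml2*. Of the 11, 7 had positive and 4 negative values (*Sall4* −0.80, *Dnd1* −0.76, *Nanos3* −0.67 and *Tdrd1* −0.24), and of 7 undifferentiated spermatogonia markers 6 were negative. *Dazl* alone measured 735 ± 82.4 CPM in *Meioc*-null testes (SD, n = 3), a large part of the germ cell sum. For *Ddx4*, the germ cell helicase, the log2 value was 0.24 ± 0.079 (SE, adjusted p = 0.081, edgeR). In whole testis, fewer germ cells and less *Scml2* RNA per germ cell cannot be told apart.

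*Scmh1*, the relative of *Scml2*, lies on chromosome 4 from 120405281 to 120530186 on the plus strand. It stood at 13.6 ± 1.52 TPM in wild type (SD, n = 4), far below *Scml2*. It measured 22.1, 29.2, 35.1 and 32.8 CPM in wild type, against 23.0, 29.4 and 21.4 CPM in *Meioc*-null testes. The groups overlapped, with wild-type replicate 1 inside the *Meioc*-null range, and the log2 fold change was 0.28 ± 0.17 (adjusted p = 0.29, edgeR). *Scml2* made up 95.4% to 96.3% of the summed TPM of this pair in wild type and 94.4% to 95.9% in *Meioc*-null testes. The difference of 0.62 percentage points was within the spread between libraries (p = 0.29, exact permutation test).

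The PCGF subunits bind the catalytic pair, and the canonical form holds BMI1 or PCGF2. *Bmi1* (chromosome 2, 18677018 to 18686629, plus strand) measured 180, 169, 147 and 165 CPM in wild type, against 174, 155 and 192 CPM in *Meioc*-null testes. These ranges interleaved, and the log2 fold change was −0.070 ± 0.097 (adjusted p = 0.66, edgeR). *Pcgf2* (chromosome 11, 97688823 to 97700497, minus strand), also called Mel18, measured 12.3, 8.29, 7.07 and 8.0 CPM in wild type, against 10.6, 11.5 and 10.7 CPM in *Meioc*-null testes. Wild-type replicate 1 was above the *Meioc*-null range and the other wild-type libraries were below it. The log2 fold change was −0.30 ± 0.19 (adjusted p = 0.31, edgeR), and without wild-type replicate 1 it was −0.49 (adjusted p = 0.043, edgeR). *Pcgf2* contributed 3.84% ± 0.71 of the summed PCGF2 and BMI1 message in TPM in wild type (SD, n = 4) and 4.32% ± 0.92 in *Meioc*-null testes (n = 3). That difference, −0.48 points (p = 0.40, exact permutation test), turned to 0.036 without *Meioc*-null replicate 2.

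The 3 polyhomeotic genes, whose sterile alpha motifs join complexes to each other, did not share a direction. *Phc1* (chromosome 6, 122317731 to 122340561, minus strand) measured 58.0, 62.9, 63.2 and 62.9 CPM in wild type, against 44.8, 56.1 and 47.5 CPM in *Meioc*-null testes. All wild-type values were higher than all *Meioc*-null values, by 1.25-fold in the fit (log2 0.32 ± 0.093 SE, adjusted p = 0.053, edgeR). It passed the threshold in 4 of 16 other fits, among them those without wild-type replicate 1 (0.35, adjusted p = 0.043) and without *Meioc*-null replicate 2 (0.42, adjusted p = 0.041), both by edgeR. In TPM the *Phc1* groups overlapped, at 19.8 to 20.4 in wild type and 16.8 to 22.6 in *Meioc*-null testes. *Phc2* (chromosome 4, 128654702 to 128752881, plus strand) measured 44.1, 37.5, 44.9 and 41.3 CPM in wild type, against 49.3, 59.2 and 49.0 CPM in *Meioc*-null testes. Here all *Meioc*-null values were the higher ones (log2 −0.32 ± 0.10 SE, adjusted p = 0.066, edgeR), as they were in TPM, at 23.3 to 32.3 against 15.7 to 20.5. *Phc3* (chromosome 3, 30899371 to 30969415, minus strand) measured 124, 117, 112 and 106 CPM in wild type, against 108, 157 and 128 CPM in *Meioc*-null testes. Its groups overlapped, and *Meioc*-null replicate 2 stood above all the others (log2 −0.19 ± 0.12 SE, adjusted p = 0.31, edgeR).

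Within each library the share of *Phc1* in the summed TPM of the 3 polyhomeotic genes was 33.9%, 38.5%, 37.0% and 39.2% in wild type and 28.8%, 26.8% and 27.8% in *Meioc*-null testes. The groups were apart by 9.34 percentage points (37.1% ± 2.34 against 27.8% ± 1.01, SD). The exact permutation test gave p = 0.057 (two-sided; adjusted over 4 shares, p = 0.23), the smallest value that 4 against 3 libraries allow, so this design cannot pass 0.05. Computed from estimated counts the difference was 7.01 points. *Phc2* took 33.1% ± 1.84 of the class in wild type and 39.3% ± 1.70 in *Meioc*-null testes, and *Phc3* took 29.8% ± 1.93 and 32.9% ± 2.64 (SD, n = 4 and 3). *Phc1* had the highest mean of the class in wild type and the lowest in *Meioc*-null testes.

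**Figure D3:**
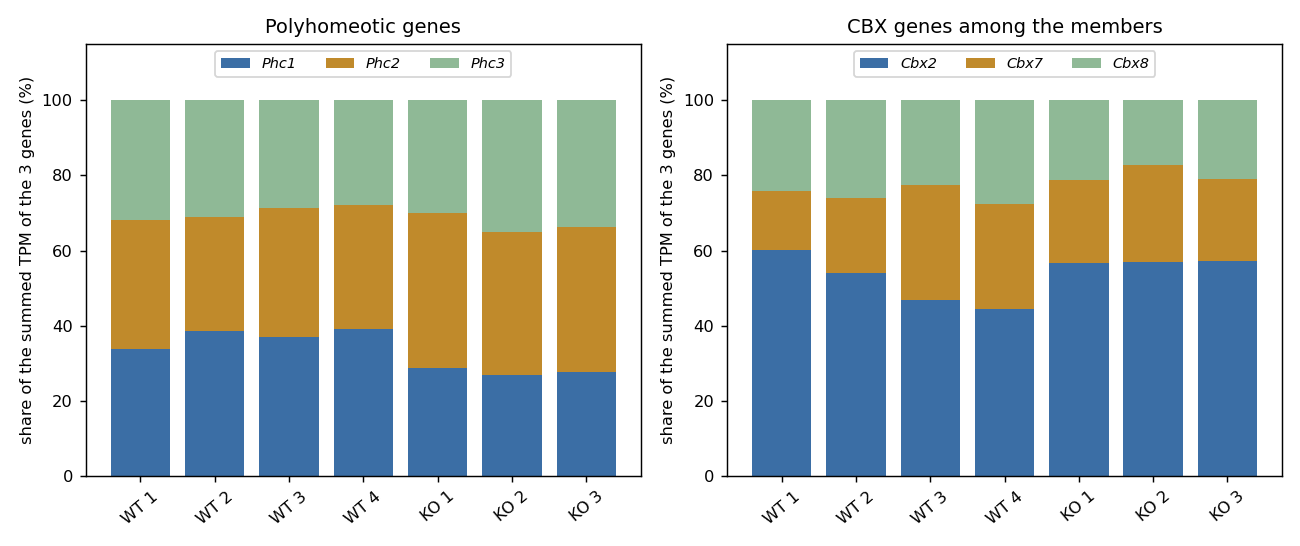
Stacked bars of the share of each gene in the summed TPM of its class in each library (WT, wild type; KO, Meioc KO), polyhomeotic genes on the left and *Cbx2*, *Cbx7* and *Cbx8* on the right. The *Phc1* part is at least 33.9% in every wild-type library and at most 28.8% in every Meioc KO library, and the *Cbx2* part overlaps between the groups.

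The CBX proteins carry the chromodomain that reads H3K27 methylation. *Cbx2* (chromosome 11, 119022962 to 119031270, plus strand) measured 48.0, 40.6, 36.8 and 30.3 CPM in wild type, against 51.5, 57.3 and 53.2 CPM in *Meioc*-null testes. Every *Meioc*-null library was higher, by 1.39-fold in the fit (log2 −0.48 ± 0.14 SE, adjusted p = 0.054, edgeR). In TPM it stood at 7.55 to 13.4 in wild type and 14.8 to 18.9 in *Meioc*-null testes. It passed the threshold in 7 of 16 other fits and kept its sign in all 16. Wild-type replicate 1 was nearest to the *Meioc*-null values, and without it the log2 value was −0.59 (adjusted p = 0.012, edgeR). *Cbx7* (chromosome 15, 79915807 to 79971119, minus strand) had the lowest level per length of the 10. It measured 7.41, 8.71, 10.4 and 10.3 CPM in wild type, against 10.9, 14.1 and 11.6 CPM in *Meioc*-null testes, with 94 to 214 reads per library. The groups were apart but close, with 10.4 and 10.9 CPM as their nearest values (log2 −0.40 ± 0.16 SE, adjusted p = 0.13, edgeR). *Cbx8* lies on chromosome 11 from 119036305 to 119040969 on the minus strand, end to end with *Cbx2* and 5034 bases away. It measured 18.8, 20.6, 17.2 and 18.5 CPM in wild type, against 18.7, 16.9 and 19.1 CPM in *Meioc*-null testes. Its ranges overlapped throughout (log2 0.037 ± 0.11 SE, adjusted p = 0.84, edgeR), and its sign turned without wild-type replicate 2 (−0.010) and without *Meioc*-null replicate 2 (−0.016). It also turned with library size only and on the TPM scales, but not relative to the median gene there (0.043 with library size only and 0.046 on log2(TPM + 1)).

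Of the summed TPM of these 3 CBX genes, *Cbx2* made up 60.3%, 54.1%, 46.9% and 44.4% in the wild-type libraries and 56.8%, 56.9% and 57.4% in the *Meioc*-null libraries. The wild-type spread enclosed the *Meioc*-null values (difference −5.59 points, p = 0.40, exact permutation test).

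**Figure D4:**
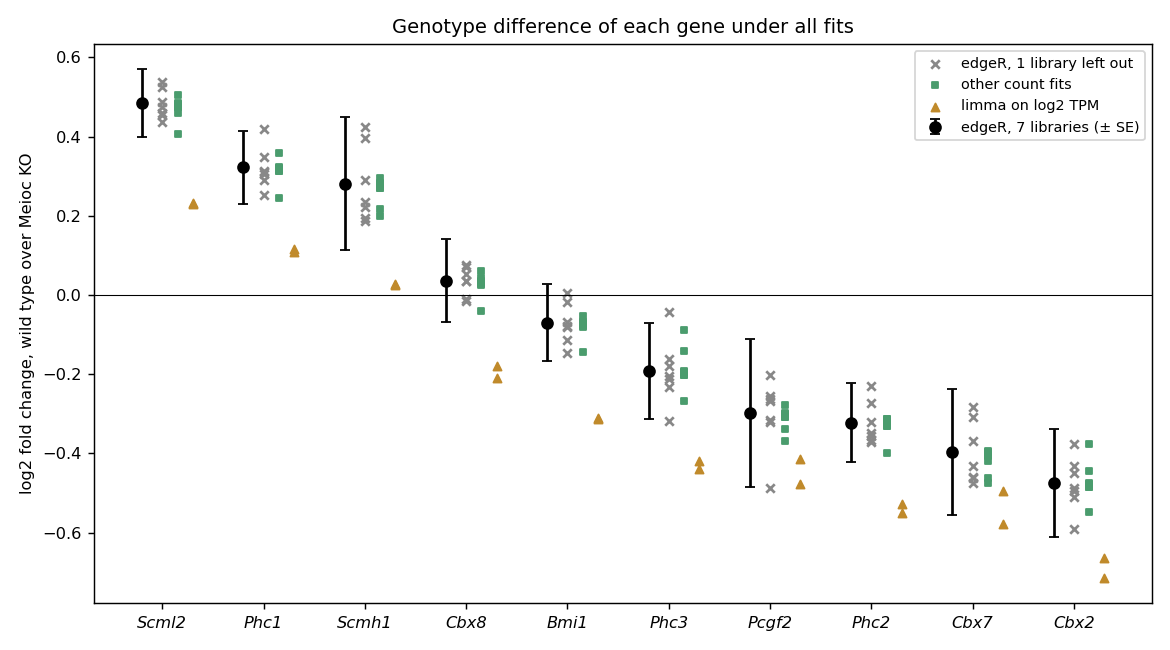
Log2 fold change of each gene, wild type over Meioc KO, in the edgeR fit of 7 libraries (black, ± SE), in the 7 fits that leave out 1 library (crosses), in the other count fits (green squares) and on log2 TPM without centring on the median gene (triangles). *Scml2*, *Phc1* and *Scmh1* are above 0 in all fits, *Phc2*, *Phc3*, *Pcgf2*, *Cbx7* and *Cbx2* are below 0 in all, and *Cbx8* and *Bmi1* cross 0.

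Several of the genes had their extreme value in the same library. *Meioc*-null replicate 2 was the highest of its group for 7 members (*Scmh1*, *Pcgf2*, *Phc1*, *Phc2*, *Phc3*, *Cbx2* and *Cbx7*) and the lowest for the other 3. The summed CPM of undifferentiated spermatogonia markers was 295 in this library, against 183 and 213 in the other *Meioc*-null libraries and 137 to 163 in wild type. Of the 10 markers 1 was at 0 in a library. Without *Meioc*-null replicate 2, the log2 value of *Phc3* was −0.043, that of *Phc2* was −0.23, that of *Cbx7* was −0.28 and that of *Scmh1* was 0.42. The part of this marker difference in the members' values was not tested. Wild-type replicate 1 was the highest of its group for *Bmi1*, *Pcgf2*, *Phc3* and *Cbx2* and the lowest for *Scml2*, *Scmh1*, *Phc1* and *Cbx7*.

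*Scml2* RNA was assigned to 6 transcripts with different annotated starts. *Scml2-205* begins at 161117193 and *Scml2-204* at 161124268, and the other 4 begin downstream, between 161162750 and 161163060. The 2 with an upstream start made up 69.4%, 67.0%, 68.8% and 67.5% of *Scml2* TPM in wild type and 69.4%, 69.4% and 67.2% in *Meioc*-null testes. This sum differed by less than its spread between libraries (68.2% ± 1.14 against 68.7% ± 1.25, SD). Both parts had lower TPM in every *Meioc*-null library, the upstream-start part at 221 ± 3.90 TPM against 190 ± 11.2 TPM and the downstream-start part at 103 ± 5.92 against 86.6 ± 0.66 TPM.

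Within the upstream-start part the assignment differed between the genotypes. *Scml2-204* held 58.6%, 63.4%, 66.0% and 42.7% of *Scml2* TPM in the wild-type libraries and 35.2%, 26.6% and 25.4% in the *Meioc*-null libraries. *Scml2-205* held 10.8%, 3.57%, 2.86% and 24.7% in wild type and 34.2%, 42.7% and 41.8% in *Meioc*-null testes. Neither range overlapped between the groups, and wild-type replicate 4 was nearest to the *Meioc*-null values in both. Of 19 transcripts of the members with between 10% and 90% of their gene, these 2 did not overlap, beside 8.49% of the 13324 such transcripts of all tested genes. Since the 2 shares sum to a nearly constant part, they count as 1 observation.

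The sequences printed above limit this reading. *Scml2-204* and *Scml2-205* share 2672 of their 2765 and 2776 distinct 31-base words, the default unit by which kallisto assigns reads. What sets them apart is the first exon (162 and 132 bases), the 78-base second exon of *Scml2-205*, 1 more copy of the repeated exon in *Scml2-204*, and a different end of the last exon. *Scml2-201* has 0 words that no other *Scml2* transcript has, and *Scml2-206* has 17. Summing the counts of the gene removes this assignment, whereas the summed TPM, which divides by transcript length, retains it.

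**Figure D5:**
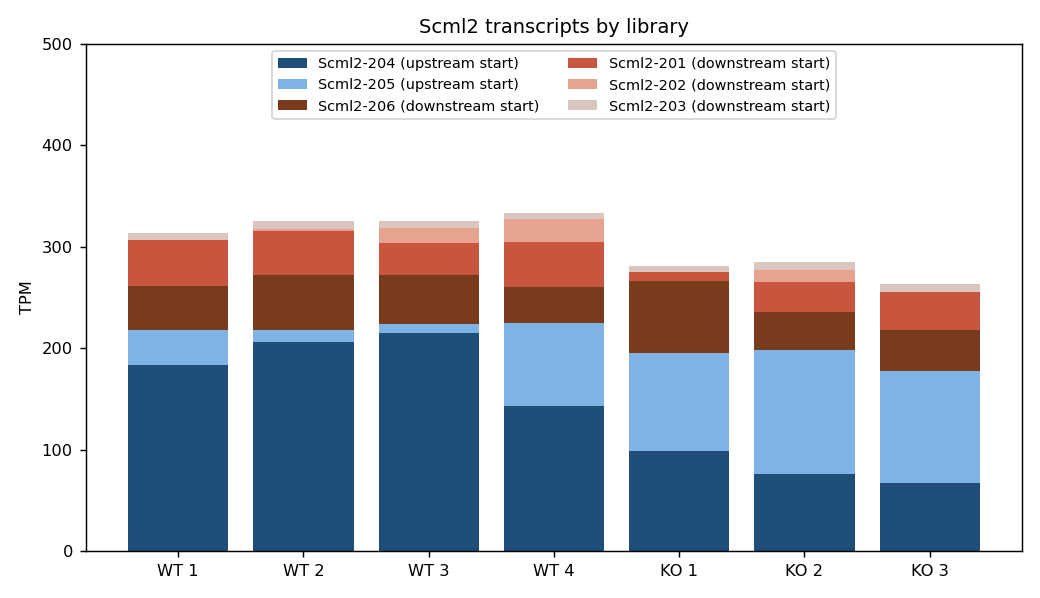
TPM of the 6 *Scml2* transcripts stacked by library (WT, wild type; KO, Meioc KO), with the 2 upstream-start transcripts in blue at the bottom and the 4 downstream-start transcripts in red and brown above. The blue part is 67.0% to 69.4% of each bar, while its dark share, *Scml2-204*, is larger in all 4 wild-type libraries.

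For the other members the transcripts mattered less or were assigned unevenly. *Phc2-202* held 94.7% to 97.5% and *Phc3-209* held 94.5% to 98.5% of their gene's TPM in all 7 libraries, and *Cbx2* and *Cbx8* have 1 transcript each. *Bmi1-202* held 65.0% to 74.9%. Over all libraries *Phc1-208* held the most of *Phc1*, at 40.4% to 48.2% in wild type and 46.2% to 60.9% in *Meioc*-null testes, but not in each library. *Phc1-203* ranged from 0 to 18.1% in wild type and from 11.4% to 48.2% in *Meioc*-null testes, above *Phc1-208* in *Meioc*-null replicate 1. *Phc1-211*, which has 0 words of its own, was at 33.7% and 58.5% in wild-type replicates 2 and 4 and at 0 in the other 5 libraries.

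The rest of the PRC1 network was read against the 11.1% of all genes that were called. Of the catalytic genes *Ring1* and *Rnf2* and the CBX gene *Cbx6*, 0 were called by edgeR and 0 had an unadjusted p under 0.05, and the largest log2 value was −0.25 ± 0.16 for *Cbx6* (adjusted p = 0.32). Variant PRC1 lacks the PHC proteins and the CBX proteins that read H3K27 methylation. Among 17 genes of its subunits and partners, 1 was called higher and 0 lower in wild type, and the median log2 value was 0.13. The called gene was *Pcgf5* (0.26 ± 0.072, adjusted p = 0.048), which passed in 1 of 7 fits that left out a library and had a value of 0.18 relative to the median gene on log2(TPM + 1) (−0.044 before centring). Of the 7 tested among 8 other SCM and MBT-domain genes, 3 were called higher and 0 lower: *Scml4*, *Sfmbt1* and *L3mbtl2*. *Scml4* had the largest value, at 13.96 ± 3.04 CPM in wild type against 7.65 ± 2.50 CPM (log2 0.86 ± 0.23 SE, adjusted p = 0.044), and passed in 2 of the 7 fits that left out a library. *Sfmbt1* measured 122 ± 15.6 against 84.2 ± 2.98 CPM (0.53 ± 0.11, adjusted p = 0.018), and *L3mbtl2*, a subunit of the PRC1.6 form of variant PRC1, 60.7 ± 4.13 against 47.3 ± 5.17 CPM (0.36 ± 0.097, adjusted p = 0.043, all by edgeR).

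Among 8 genes for removal of H2A ubiquitin, 0 were called and 1 had an unadjusted p under 0.05. The one with the largest value was *Asxl3* (−0.75 ± 0.28, adjusted p = 0.11, edgeR), a cofactor of the deubiquitinase BAP1. *Asxl3* lay close to the level for testing, at 0.62 to 1.23 TPM in wild type and 0.98 to 2.44 TPM in *Meioc*-null testes. It reached that level in only 4 of the 7 fits that left out a library. Of 6 genes of PRC2, which writes the mark that CBX proteins read, 1 was called higher in wild type, the methyltransferase *Ezh2* (0.56 ± 0.11, adjusted p = 0.018, edgeR), and it passed in 3 of the 7 fits that left out a library. The *Hox* genes, textbook Polycomb targets, and the Ink4 genes, only some of which are such targets, were read in the same way. Of 4 Ink4 cell cycle inhibitor genes 0 were called and 2 had an unadjusted p under 0.05, and all 4 had positive values, the largest being *Cdkn2a* (0.52 ± 0.16, adjusted p = 0.060, edgeR). Of 39 *Hox* genes, 12 reached the level for testing. Among these, 1 was called lower in wild type and 0 higher, with a median of −0.38. This median includes *Hoxb4* (−0.62) and *Hoxc9* (−0.74), which reached 1 TPM in *Meioc*-null libraries only. Their wild-type TPM was 0.64 to 0.99 and 0.58 to 0.88. Their place in the list thus depended on the genotype in which they were high, and the median cannot be read as a shift of the *Hox* genes. The called gene was *Hoxb7*, at 0.93 ± 0.20 against 1.99 ± 0.38 CPM (−1.06 ± 0.28, adjusted p = 0.038, edgeR), and it passed in 1 of the 7 fits that left out a library.

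The markers of testis cells were read as fixed lists, without a test of the list. Among the 11 germ cell markers tested, 4 were called higher in wild type, led by *Tex101* (1.27 ± 0.15, adjusted p = 0.0042, edgeR), and 1 was called lower, *Nanos3* (−0.67 ± 0.17, adjusted p = 0.037, edgeR). Undifferentiated spermatogonia markers had 0 called higher and 2 lower of 7 tested, led by *Zbtb16* (−0.86 ± 0.18, adjusted p = 0.021, edgeR). Differentiating spermatogonia markers had 2 higher and 0 lower of 7, led by *Rhox13* (0.85 ± 0.14, adjusted p = 0.013, edgeR). Spermatocyte markers had 8 higher and 0 lower of 10, led by the cohesin gene *Smc1b* (1.74 ± 0.19, adjusted p = 0.0023, edgeR). The 12 Sertoli cell markers summed to 6238 to 6455 CPM in wild type and 6365 to 7417 CPM in *Meioc*-null testes, with 2 called lower in wild type, led by *Kitl* (−0.70 ± 0.091, adjusted p = 0.0053, edgeR). Peritubular myoid markers had 1 called lower of 6, *Des* (−0.37, adjusted p = 0.049), and endothelial markers had 1 called higher of 6, *Egfl7* (0.55, adjusted p = 0.049, edgeR), and neither passed in any of 7 fits that left out a library. Leydig cell markers had 0 of 8 called, and *Star* (−1.10 ± 0.75, adjusted p = 0.35, edgeR) changed sign without *Meioc*-null replicate 3. Macrophage markers had 0 of 6 called, with *Csf1r* largest (−0.24, adjusted p = 0.12, edgeR). The Leydig list had 2 genes and the macrophage list 1 gene at an unadjusted p under 0.05.

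Genes with a pattern across the 7 libraries most like that of *Scml2* were sought among the 10243 tested genes whose mean reached 10 CPM, by Pearson correlation of log2 CPM. The 3 highest were *Rbm4b* (r = 0.998), *Tex30* (r = 0.997) and *Lrrfip2* (r = 0.997), and 503 genes exceeded 0.95. These points share the split between genotypes and their library composition. *Rbm4b* measured 31.1 ± 4.42 CPM in wild type and 17.0 ± 2.21 CPM in *Meioc*-null testes, *Tex30* measured 114 ± 10.3 and 79.3 ± 5.28 CPM, and *Lrrfip2* measured 84.1 ± 3.19 and 70.8 ± 2.78 CPM (SD, n = 4 and 3).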

How the data were processed

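Stranded total RNA-seq of 7 preleptotene-enriched testes was analysed, grouped by the genotype in the labels. The authors trimmed reads with cutadapt 1.8 and ran kallisto 0.44.0 with bias and strand options on GENCODE Basic vM15. The deposited tables hold estimated counts per protein-coding transcript and the authors' TPM, which keeps no depth. Transcripts were matched to GENCODE vM21 (GRCm38); 119 of 43139 were not matched (0.247% to 0.282% of a library's counts) and were left out. Both measures were added up over each gene's transcripts, and counts were rounded, scaled by TMM and tested with the edgeR 4.0.16 quasi-likelihood test (R 4.3.3) without covariates, Benjamini-Hochberg adjusted. The procedure was tested on simulated data. DESeq2 1.42.0, limma 3.58.1, other filters and scalings, a replicate block and leaving out each library were alternatives. Shares used a two-sided exact permutation test. Pairs of libraries of a group differed by at least 7.97 times counting noise. A count of 3, taken as the floor, is 0.151 to 0.236 CPM.

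Named genes are the 10 members, *Meioc*, the most changed called gene of each list in each direction (or the most changed, where none was called), transcripts with at least 10% of their gene and the 3 genes most like *Scml2*. *Ddx4*, *Dazl*, *Sall4*, *Dnd1*, *Tdrd1*, *Sfmbt1*, *L3mbtl2*, *Ring1* and *Rnf2* were added later. A listed gene is not reported here. Members and lists were chosen with earlier results of these data known. RefSeq promoters were matched by symbol.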

Additional observations from a re-analysis of the deposited data

Results flagged for a closer look

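*Phc1* was singled out by 1 library. Among the 4 wild-type libraries, replicate 1 had 58.0 CPM while the others had 62.9 to 63.2 CPM, a gap of 0.94 of the whole range, above Dixon's 95% critical value for 4 samples, which chance passes in about 1 of 20 groups. It was the only one of 14 sets of wild-type values (10 genes and 4 shares) so marked. Without this library the log2 fold change of *Phc1* was 0.35 in place of 0.32.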

How the results depend on the processing

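The whole-table counts moved by more than 1.5 times in several fits. Calls higher in wild type, 1059 in the fit reported, were 440 and 443 by limma on log2(TPM + 1) and log2(TPM + 0.1), and 112 to 1441 when a library was left out. Calls lower in wild type, 454 in that fit, were 875 by DESeq2, 899 with library size only, 2082 and 2063 on the TPM scales, and 17 to 831 when a library was left out. Members called were 1 in the fit reported, beside 1513 of all 13630 genes tested. They were 4 by DESeq2 (2331 genes called), 3 with library size only (1713) and 2 on either TPM scale (2522 and 2506). With the length trend removed they were 2 (1816). They were also 2 with no TPM filter (1381 of 19310 genes) and with filterByExpr (1451 of 14917). When a library was left out they were 0 to 4. The extremes were without *Meioc*-null replicate 3 (0, beside 129 of 13480 genes) and without wild-type replicate 1 (4, beside 2177 of 13510). Without *Meioc*-null replicate 2 there were 2, beside 371 of 13429 genes. The cause was not tested. The log2 value of *Cbx8* turned to −0.040 with library size only and to −0.18 and −0.21 on the TPM scales, where the median gene stood at −0.083, −0.23 and −0.25; relative to that median it was 0.043, 0.046 and 0.035. It ranged from −0.016 to 0.075 when a library was left out. That of *Bmi1* ranged from −0.15 to 0.0053. The signs of the other 8 members held in all 16 other fits. On both TPM scales *Pcgf5* (−0.044) and *Lrrfip2* (−0.0014) were negative before centring and 0.18 and 0.22 relative to the median gene of log2(TPM + 1). *Star* turned when a library was left out (−1.65 to 0.44). The *Pcgf2* share difference ranged from −0.85 to 0.036 points.

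Replicate numbers gave no pairing: libraries of the same number had correlations of their deviations of 0.023, −0.095 and −0.13. With the replicate block, 94 genes were called higher and 15 lower, and 0 members (*Scml2* 0.46, adjusted p = 0.12, edgeR).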
